A study of Mus musculus with 2 samples.

Results

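The genes of ileal bile acid handling Slc10a2, Fabp6, Slc51a, Slc51b, Nr1h4, Nr0b2 and Fgf15 were followed through cells labelled as ileal epithelium of WT and Tipe0-/- mice. They were chosen by symbol, and all 7 were found among the 27998 genes of the count matrices, with 1 row for each symbol. The study made 2 single-cell RNA-sequencing libraries, 1 from wild-type (WT) mice and 1 from mice that lack Tnfaip8, also called Tipe0 (TNFAIP8-/- in the labels, Tipe0-/- here). Both are on the C57BL/6 background and 8 weeks old, and the labels name no further allele and no treatment of the animals. By a figure legend of the study the cells of 3 mice were pooled for each genotype, so the animals cannot be separated and each genotype is 1 sample. The treatment text of the labels calls the digested material enteroids, whereas the methods describe isolated enterocytes, and which of these the cells were is not resolved. Differences between the libraries therefore have no replicate check, and no p-value is given.

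Bile acids are made in the liver and released into the gut, and most of them are recovered in the terminal ileum. Slc10a2 (ASBT) is the sodium-dependent transporter that takes them up across the brush border. Fabp6 is the ileal bile acid-binding protein of the cytosol, and Slc51a and Slc51b are the 2 subunits of the basolateral exporter OST. Inside the cell bile acids activate the nuclear receptor FXR, encoded by Nr1h4. FXR is known to raise transcription of Fabp6, Slc51a, Slc51b, Nr0b2 (SHP, a repressor) and Fgf15, a hormone that travels to the liver and lowers bile acid synthesis.

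FXR with its partner RXR is known to bind an inverted repeat of the half-site AGGTCA with 1 base between the copies, written AGGTCANTGACCT. The 250 bases before the start of each gene were taken from RefSeq (GRCm38.p6), which gave a window for 6 of the 7 genes and none for Fgf15. The windows of Fabp6 and Slc51a are shown. Both genes are known FXR targets, were abundant in these cells and held a match to the repeat. The same was true of Slc51b, whose match is given below without its window. Both lie on the minus strand, at chr11:43601563-43601812 for Fabp6 and chr16:32487880-32488129 for Slc51a. Capitals mark every match to the repeat with up to 3 mismatches. The repeat is its own reverse complement, so 1 search covered both strands.
Fabp6: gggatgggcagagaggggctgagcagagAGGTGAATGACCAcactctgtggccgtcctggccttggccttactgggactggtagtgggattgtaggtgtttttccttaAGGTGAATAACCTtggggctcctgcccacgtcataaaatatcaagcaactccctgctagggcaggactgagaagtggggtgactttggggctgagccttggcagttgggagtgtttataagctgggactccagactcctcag
Slc51a: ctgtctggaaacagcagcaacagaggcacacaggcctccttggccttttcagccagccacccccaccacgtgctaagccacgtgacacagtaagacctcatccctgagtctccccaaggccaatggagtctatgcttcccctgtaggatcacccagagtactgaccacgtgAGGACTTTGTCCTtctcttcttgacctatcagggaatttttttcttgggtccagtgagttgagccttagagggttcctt

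Counted from the gene's RefSeq start, the Fabp6 window held 2 matches with 2 mismatches each, AGGTGAATGACCA at -222 to -210 and AGGTGAATAACCT at -142 to -130. A match with up to 2 mismatches was found in 0.959% of the 32851 windows of the RefSeq table. The single matches of Slc51a (AGGACTTTGTCCT, -79 to -67) and Slc51b (GGGTCATTCACCC, -187 to -175) had 3 mismatches, a degree of likeness that 9.63% of all windows reached. The windows of Slc10a2, Nr1h4 and Nr0b2 held none with up to 3 mismatches. As GENCODE draws the genes, the Slc51b and Slc10a2 windows lie partly inside them and that of Nr1h4 (chr10:89506659-89506908) wholly inside, so it is the window before one RefSeq start and not before the outermost start of the gene. These windows are not shown in full. A match of letters describes the window, and binding was not measured.

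The genes themselves lie at chr8:5083219-5105351 (Slc10a2), chr11:43596049-43601540 (Fabp6), chr16:32474504-32487879 (Slc51a), chr9:65412714-65422955 (Slc51b) and chr10:89454234-89533585 (Nr1h4), all on the minus strand, and at chr4:133553376-133556536 (Nr0b2) and chr7:144896531-144900953 (Fgf15) on the plus strand (GENCODE M21, GRCm38). All 7 are protein coding.

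The WT library held 3402 cells and 38127808 UMIs (unique molecular identifiers, each counting 1 captured mRNA molecule once), and the Tipe0-/- library 2006 cells and 23897126 UMIs. Median depths were 7760 and 7307.5 UMIs per cell. Levels are given as UMIs per 1000000 UMIs of the same cells (CPM) with exact 95% Poisson intervals, which cover counting error only. Tnfaip8 itself was at 9.76 CPM (8.79 to 10.8) in WT and 2.39 CPM (1.81 to 3.09) in Tipe0-/-. Where those reads lie relative to the deleted part of the gene is not given in the sources used here. Mitochondrial genes took 6.59% and 8.56% of UMIs. The libraries shared 9 cell barcodes, and the cells of no shared barcode fell in the same class. Clusters were named from fixed marker lists, and the 7 genes were kept out of the genes used for clustering. Enterocyte-like cells, in clusters 4, 6 and 9, numbered 788 in WT (23.2% of cells) and 394 in Tipe0-/- (19.6%). The labels call the cells enterocytes, but goblet-like, Paneth-like, tuft-like, stem-like, cycling-like and T lymphocyte-like clusters were also present. Clusters 1 (led by the DNA replication genes Dtl, Uhrf1 and Mcm4) and 5 (led by Gsdmc4, Gsdmc3 and Gsdmc2) stayed unnamed. Cluster 4, led by Ms4a18 and Fabp6, was named from 11 of 20 enterocyte markers but had none of them among its 10 leading genes.

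The transport genes were concentrated in enterocyte-like cells. Slc10a2 was the most restricted of the abundant members, with 88.7% of its WT UMIs and 90.8% of its Tipe0-/- UMIs in this class, which held only 17.8% and 13.2% of all UMIs. Its level there was 604 CPM (586 to 623) in WT and 844 CPM (812 to 876) in Tipe0-/-. The next highest class was tuft-like in WT, at 43.1 CPM, and goblet-like in Tipe0-/-, at 28.5 CPM, so the enterocyte-like level stood well apart from the pooled level of each other class in both. Goblet-like cluster 11 alone had 184 CPM in WT and 274 CPM in Tipe0-/-, beside 245 and 255 CPM in enterocyte-like cluster 4. Stem-like cells had 4.05 CPM and 1.92 CPM. Cluster 5 had 18.4 and 10.2 CPM of Slc10a2, although its Fabp6 level was the second highest of all classes in both libraries.

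Fabp6 was by far the most abundant member. It reached 29418.5 CPM in WT enterocyte-like cells and 40208 CPM in those of the Tipe0-/- library, about 3 and 4 of every 100 molecules counted. Cluster 5 followed with 10055 CPM and 10348 CPM. The lowest levels were found in stem-like cells (166 and 177 CPM) and Paneth-like cells (192 and 165 CPM), and the intervals of these 2 classes overlapped in Tipe0-/- and not in WT. With every cell thinned to 3000 UMIs, Fabp6 was seen in 99.7% of WT and 100% of Tipe0-/- enterocyte-like cells. It was also seen in 60.9% of WT T lymphocyte-like cells, which are not known to make it, so a Fabp6 UMI in a single cell does not mark an absorptive cell in these droplets.

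The OST subunits followed Fabp6 across classes at lower levels. Slc51a was at 761 CPM (741 to 782) in WT and 914 CPM (881 to 948) in Tipe0-/- enterocyte-like cells, and Slc51b at 1125 CPM (1100 to 1151) and 909 CPM (876 to 943). A count of 3′ ends is not scaled by transcript length, but how fully the ends of each gene are captured was not examined. By UMIs, Slc51b exceeded Slc51a in the WT class, and in the Tipe0-/- class the intervals overlapped. Cluster 5 was second for both, at 192 and 169 CPM of Slc51a and 219 and 166 CPM of Slc51b. Stem-like and Paneth-like cells stayed below 9 CPM of either subunit in both libraries.

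Nr1h4 was spread much more widely than the genes it is known to control. Enterocyte-like cells had 117 CPM (109 to 126) in WT and 135 CPM (122 to 148) in Tipe0-/-. Cluster 5, at 101 CPM (88.8 to 114) and 111 CPM (92.2 to 133), did not differ from them beyond the counting intervals. Cycling-like cells had 56.5 and 61.5 CPM, goblet-like cells 44.3 and 42.9 CPM and stem-like cells 17.7 and 14.98 CPM. Paneth-like cells were low, at 8.80 and 6.69 CPM. Only 38.9% of WT and 35.6% of Tipe0-/- Nr1h4 UMIs came from enterocyte-like cells, against 71.8% and 74.5% for Fabp6.

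The 2 regulatory targets were scarce. Nr0b2 had 1 UMI in WT, in a Paneth-like cell, and 0 in Tipe0-/-. Its 0 UMIs in enterocyte-like cells allow a level of up to 0.443 CPM in WT and 0.948 CPM in Tipe0-/- cells, taking 3 counts as the limit. Fgf15 had 87 UMIs in 64 WT cells and 41 UMIs in 30 Tipe0-/- cells. Enterocyte-like cells held 79 and 32 of these, which gives 11.7 CPM (9.24 to 14.5) and 10.1 CPM (6.91 to 14.3). No other class had more than 5 UMIs of Fgf15 in either library, and tuft-like and T lymphocyte-like cells had 0 in both.

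**Figure D1:**
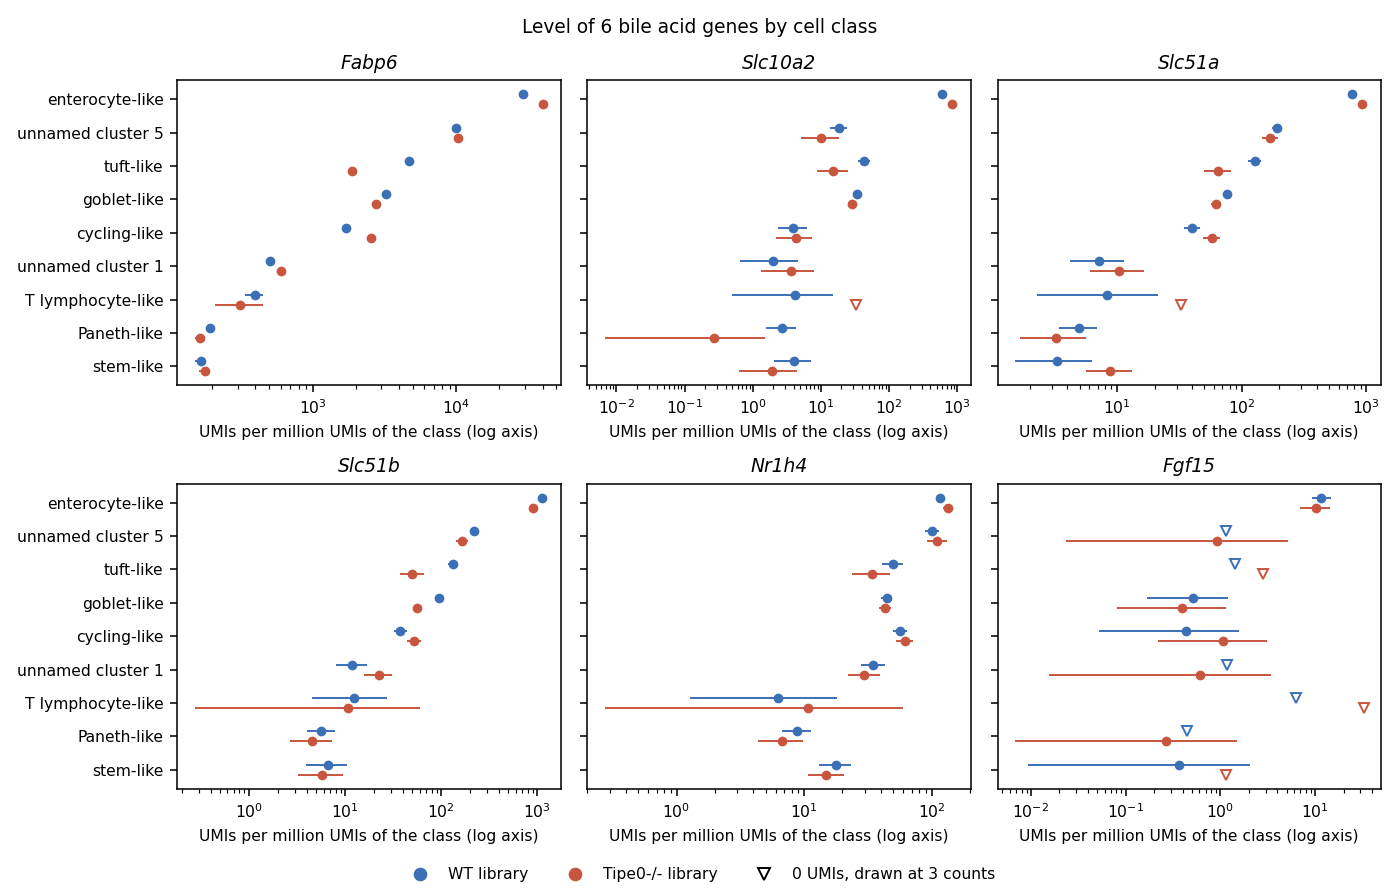
Level of 6 members in each cell class, in CPM of the class on a log axis, for the WT and the Tipe0-/- library; bars are exact 95% Poisson intervals, and open triangles mark classes with 0 UMIs at the level of 3 counts. The enterocyte-like class is highest for all 6 genes in both libraries (T lymphocyte-like triangles, which mark a limit and not a level, can lie further right), and the slope from top to bottom is shallowest for Nr1h4.

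Droplets also hold free RNA, so the low levels were set beside those of enterocyte markers. Of the 20 enterocyte markers, 17 had at least 500 WT UMIs in enterocyte-like cells. In WT goblet-like cells these stood at a median of 7.002% of their enterocyte-like level (range 2.36% to 16.9%), and Slc10a2 was at 5.67%, Slc51a at 10.1%, Slc51b at 8.45% and Fabp6 at 11.02%, all within that range. These pooled levels came mostly from cluster 11, which held 24356 of the 31240 Fabp6 UMIs and 301 of the 330 Slc10a2 UMIs of the class. Fabp6 was at 14894 CPM in WT cluster 11, against 799 CPM in cluster 0 and 1221 CPM in cluster 8, the other goblet-like clusters. In WT tuft-like cells the marker median was 10.1% and the Tipe0-/- median 4.91%. Slc10a2 (7.14% and 1.80%), Slc51b (11.8% and 5.52%) and Fabp6 (15.9% and 4.66%) were likewise lower in the Tipe0-/- tuft-like cells. In cluster 5 Fabp6 was at 34.2% and 25.7%, above every one of the 17 markers in both libraries (highest 24.4% and 21.4%), whereas Slc10a2 was at 3.05% and 1.21%. Nr1h4 lay above the highest marker at 85.7% and 82.4% in cluster 5, at 48.1% and 45.6% in cycling-like cells and at 37.7% and 31.8% in goblet-like cells. In stem-like cells it stood at 15.05% and 11.1%, within the range of the markers. The parts of free RNA and of doublets (droplets with more than a single cell) in these levels were not tested further.

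Among enterocyte-like cells the members did not peak in the same cluster. In the WT library Slc10a2 was at 245 CPM in cluster 4, 883 CPM in cluster 6 and 1092 CPM in cluster 9. Fabp6 was highest in cluster 6 (33071 CPM), lower in cluster 4 (27755 CPM) and lowest in cluster 9 (14160 CPM), which is led by Apoa4, Clca4a and Ada. Nr1h4 was at 142, 104 and 41.4 CPM over the same clusters. The Tipe0-/- library had the same order for Slc10a2 (255, 955 and 1631 CPM), while its Nr1h4 was at 177, 107 and 91.0 CPM. Fabp6 leads cluster 4 among other genes, although it was not used to form it. The libraries filled these clusters differently, with 345, 367 and 76 WT cells and 170, 69 and 155 Tipe0-/- cells in clusters 4, 6 and 9. In a finer clustering (resolution 1.2), an enterocyte-like cluster led by Slc6a19, Sepp1 and 2010106E10Rik held 8 WT and 131 Tipe0-/- cells. Another, led by Apoa4, 2010109I03Rik and Clca4a, held 69 WT and 27 Tipe0-/- cells. Cluster 9 may hold both kinds of cell in unlike shares, which was not tested.

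A majority of enterocyte-like cells held molecules of the whole transport chain. After thinning to 3000 UMIs, 467 of 788 WT cells (59.3%) and 249 of 394 Tipe0-/- cells (63.2%) held a UMI of each of Slc10a2, Fabp6, Slc51a and Slc51b, and none held 0 of the 4. Slc10a2 was seen in 69.8% of the WT class (66.5% to 73.0%, Clopper-Pearson) and 73.4% of the Tipe0-/- class (68.7% to 77.7%), and Slc51b in 92.3% and 89.6%. In WT T lymphocyte-like cells, a class that should lack these genes, the thinned shares were 1.09% for Slc10a2, 3.26% for Slc51a and 4.35% for Slc51b, with a median depth of 4492 UMIs against 6438.5 in enterocyte-like cells. With 2000 variable genes chosen by the vst method, the 68 WT cells of a T lymphocyte-like cluster had higher shares, of 7.35%, 20.6% and 17.6%, and 9473 CPM of Fabp6, 32.2% of the enterocyte-like level. Both OST subunits were seen together in 80.3% of WT cells, beside the 79.5% that their separate shares would give. Slc51b was seen in 93.2% of WT cells with Slc51a and in 86.2% of those without it. The median cell held 77 thinned Fabp6 UMIs in WT and 107 in Tipe0-/-, with 10th and 90th percentiles of 25.7 and 163 in WT and 33.9 and 204 in Tipe0-/-. When cells were ranked by Fabp6 within each library and split into 5 groups of equal size, Slc51b was higher in the top than in the bottom group, at 4.66 (4.32 to 5.01) against 2.47 (2.24 to 2.73) UMIs per cell in WT and 4.18 (3.74 to 4.66) against 2.19 (1.88 to 2.54) in Tipe0-/-. Slc10a2 differed less, at 2.06 against 1.76 and 2.79 against 2.70 UMIs per cell, and its intervals overlapped in both libraries.

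A villus score, the mean z-score of 16 tip genes minus that of 12 base genes, placed the 1182 enterocyte-like cells in 5 bins of equal size cut over both libraries. The bins are ranges of a score and not cell types, and none of the members is in the score. Fgf15 and Slc10a2 were highest at the tip end. WT Fgf15 was at 0.998, 2.97, 4.03 and 16.2 CPM in bins 1 to 4 and at 76.0 CPM (56.6 to 99.95) in bin 5. WT Slc10a2 went from 267 to 1115 CPM, a log2 ratio of bin 5 over bin 1 of 2.06 (1.90 to 2.22). In the Tipe0-/- library it went from 161 to 1593 CPM, a log2 ratio of 3.30 (2.95 to 3.69), a steeper slope by counting error. Slc51a and Slc51b were highest in bin 4 in both libraries. Nr1h4 was lowest in bin 5 in both, with 143 CPM in bin 1 and 50.7 CPM in bin 5 in WT, and 154 CPM in bin 1, 174 CPM in bin 3 and 73.0 CPM in bin 5 in Tipe0-/-. Fabp6 was highest in bin 3 in WT (33536 CPM) and in bin 4 in Tipe0-/- (49170 CPM), and stood at 18069 and 27758 CPM in bin 5. Thus the receptor was lowest, and the hormone highest, at the tip end of the same score. The direction of the bin 5 over bin 1 ratio of Fabp6 in the Tipe0-/- library, -0.17, turned with tip genes alone (0.05) and with 3 bins (0.15).

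**Figure D2:**
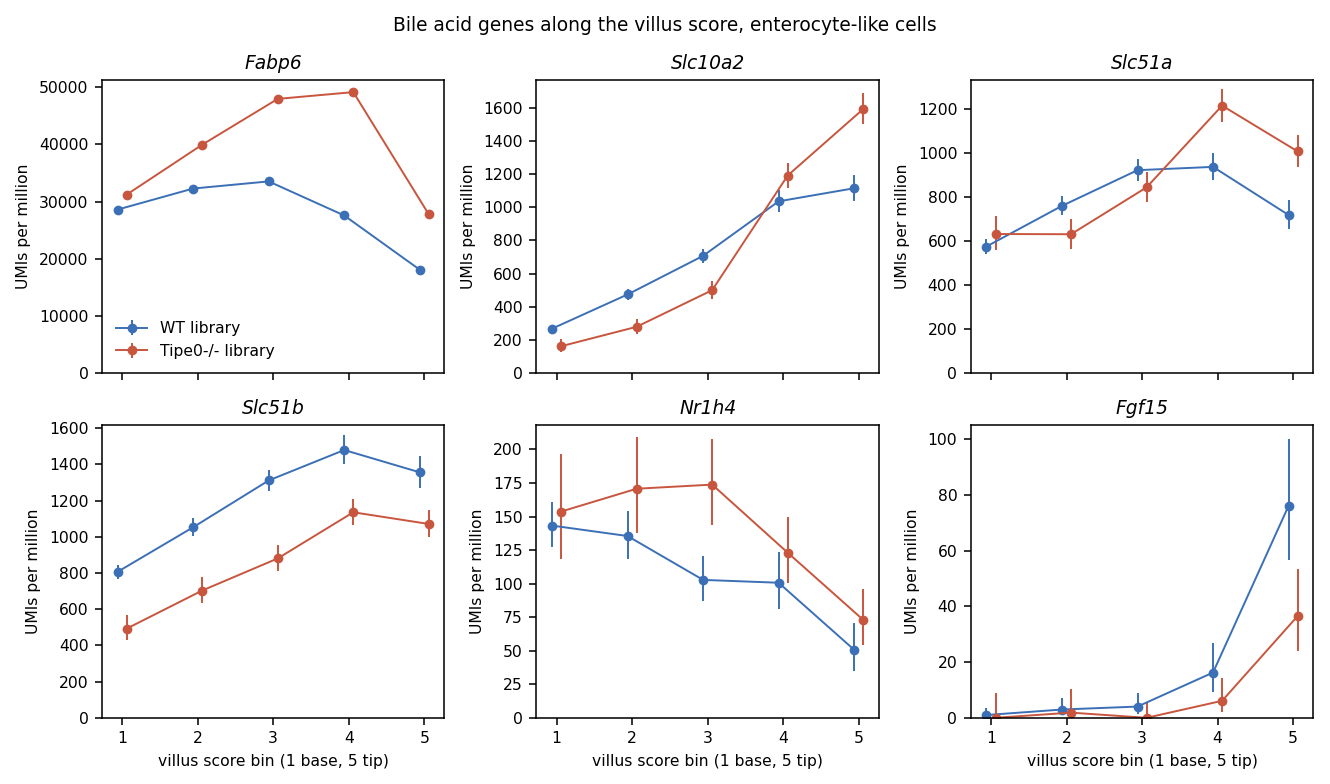
CPM of 6 members in 5 bins of the villus score (1 at the base end, 5 at the tip end) among enterocyte-like cells of the WT and the Tipe0-/- library, with exact 95% Poisson intervals; every vertical axis starts at 0. Slc10a2 and Fgf15 climb to bin 5, Slc51a and Slc51b peak in bin 4, Nr1h4 is lowest in bin 5, and the Slc51b values of the Tipe0-/- library lie below those of WT in all 5 bins.

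The comparison of the genotypes asks whether loss of Tnfaip8 goes with another level of these genes. Counted over all cells, Slc51b was lower in Tipe0-/-, at 157 CPM (152 to 162) against 253 CPM (248 to 258), a log2 ratio of -0.69 (-0.74 to -0.63). The other members with at least 50 UMIs (called tested from here on, with no p-value involved) differed by less than 1.5-fold. Log2 ratios were -0.03 for Fabp6 (7149 against 7277 CPM), 0.03 for Slc10a2 (123 against 121 CPM), -0.17 for Slc51a (161 against 181 CPM), -0.10 for Nr1h4 (50.2 against 53.7 CPM) and -0.40 (-0.98 to 0.14) for Fgf15 (1.72 against 2.28 CPM). Thus 1 of the 6 members with at least 50 UMIs was past 1.5-fold lower and 0 were past 1.5-fold higher, beside 5.06% of all 11665 such genes lower and 8.62% higher. The median over all these genes was 0.15, the members' median was -0.13, and all 6 members lay below the median of all genes. With the share of every class set equal in the 2 libraries, the log2 ratio of Slc51b was -0.51, under 1.5-fold. Those of the other members were then 0.15 for Fabp6, 0.22 for Slc10a2, 0.002 for Slc51a, -0.03 for Nr1h4 and -0.24 for Fgf15.

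Within enterocyte-like cells the order changed. Fabp6 was 1.37-fold higher in Tipe0-/-, with a log2 ratio of 0.45 (0.44 to 0.46), and Slc10a2 1.40-fold higher, with 0.48 (0.41 to 0.55). Slc51a had a log2 ratio of 0.26 (0.20 to 0.33) and Nr1h4 of 0.20 (0.03 to 0.37). Slc51b stayed lower, at -0.31 (-0.37 to -0.25), and Fgf15 was at -0.19 (-0.85 to 0.40), an interval that spans 0. Of the 6 members tested, 0 were past 1.5-fold in either direction, beside 12.8% of 7899 genes higher and 3.85% lower. The members' median was 0.23 and that of all genes 0.15. Fabp6 was higher in Tipe0-/- in each of clusters 4, 6 and 9 (log2 ratios 0.52, 0.54 and 1.34) and in each of the 5 bins (0.13 to 0.83), and Slc51b was lower in each of those clusters (-0.27, -0.42 and -0.16) and bins (-0.71 to -0.34).

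The 2 libraries differed in where their enterocyte-like cells lay on the villus score. From bin 1 to bin 5 the WT library had 200, 173, 166, 135 and 114 cells and the Tipe0-/- library 37, 63, 71, 101 and 122. Median scores in WT and Tipe0-/- were -0.64 and -0.40 in cluster 4, -0.01 and 0.21 in cluster 6 and 1.51 and 0.80 in cluster 9. Ratios within a cluster therefore also compare cells of unlike score, and in cluster 9 possibly unlike mixes of the finer clusters given above. Slc10a2 was lower in Tipe0-/- in bins 1 to 3 (log2 ratios -0.72, -0.76 and -0.50) and higher in bins 4 and 5 (0.20 and 0.51). With equal shares of the bins in both libraries its log2 ratio was 0.01, while those of Fabp6 (0.48), Slc51b (-0.49) and Nr1h4 (0.38) kept their direction. Within the class the 20 enterocyte markers summed to 17269 CPM in WT and 23705 CPM in Tipe0-/-, with 0 genes at 0 in either. The 12 T lymphocyte markers summed to 137 and 20.8 CPM, with 2 genes at 0 in Tipe0-/- (0 in WT), and the 11 Paneth markers to 1365 and 629 CPM, with 1 gene at 0 in Tipe0-/-. Reg3g, an antimicrobial lectin of the score's base list, was at 50146 and 26911 CPM. The part of these differences in the members' ratios was not tested.

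**Figure D3:**
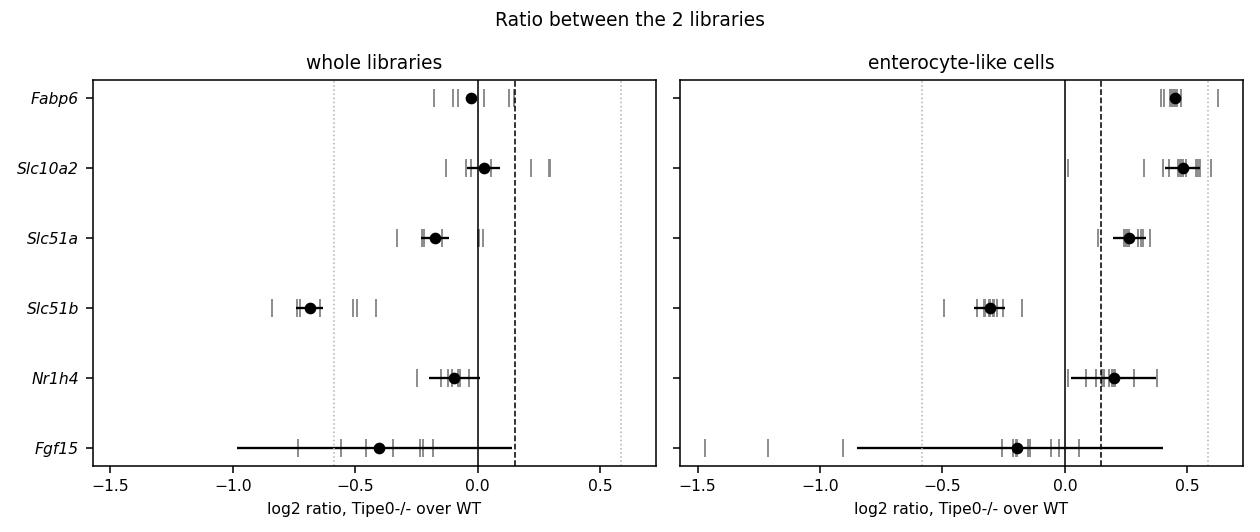
Log2 ratio of Tipe0-/- over WT for 6 members over the whole libraries (left) and within enterocyte-like cells (right); points with bars are the values with exact 95% counting intervals, grey ticks the values under each alternative processing, the dashed line the median of all genes and dotted lines 1.5-fold. Slc51b lies left of 0 under every alternative in both panels, and Fabp6 and Slc10a2 lie right of 0 among enterocyte-like cells.

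The subunits of OST can be compared within a library without any scaling total. WT enterocyte-like cells held 5152 UMIs of Slc51a and 7617 of Slc51b, a ratio of 0.676 (0.653 to 0.701, exact binomial). The Tipe0-/- class held 2893 and 2879, a ratio of 1.005 (0.954 to 1.06). The log2 difference of 0.57 (0.51 to 0.63) ranged from 0.48 to 0.66 over the 12 alternatives that could move it. Another scaling total cannot change a ratio within a library. The WT ratio was the lower of the pair in cluster 4 (0.721 against 0.954), cluster 6 (0.677 against 0.998) and cluster 9 (0.477 against 1.05), with no overlap of their intervals. It was the lower one in all 5 bins, with intervals that overlapped in bin 2 alone. Goblet-like cluster 11 showed 0.790 (0.709 to 0.881) and 1.15 (0.967 to 1.36). Its second highest marker list was that of enterocytes, and 100% of its thinned cells held Fabp6 in both libraries. Median WT depth was 12919 UMIs in cluster 11, 5141.5 in goblet-like cluster 8 and 15151 in goblet-like cluster 0. Whether cluster 11 holds doublets was not tested. Intervals overlapped in cluster 5 (0.877 against 1.02), tuft-like cells (0.957 against 1.28), goblet-like cluster 0 (0.983 against 1.04) and goblet-like cluster 8 (0.571 against 1.22), where the WT ratio was again the lower one. In cycling-like cells the ratios were 1.06 (0.855 to 1.31) and 1.10 (0.870 to 1.38), close to each other and with overlapping intervals. These cells held 183 UMIs of Slc51a and 173 of Slc51b in WT, and 161 and 147 in Tipe0-/-. Stem-like cells held only 9 and 18 UMIs in WT, and 23 and 15 in Tipe0-/-. There the WT ratio was the lower one, and the intervals overlapped (0.198 to 1.17 and 0.766 to 3.16). In Paneth-like cells (0.868 against 0.706) and cluster 1 (0.600 against 0.459), with 38 or fewer UMIs of either subunit in each library, the WT ratio was the higher one and the intervals overlapped. Each subunit gene overlaps a gene on the opposite strand, Pcyt1a for Slc51a and Rasl12 for Slc51b. Pcyt1a was at 40.9 and 46.7 CPM in enterocyte-like cells, and Rasl12 had 2 and 4 UMIs. Fgf15 overlaps the antisense gene Gm26793, which had 1 and 0 UMIs there.

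**Figure D4:**
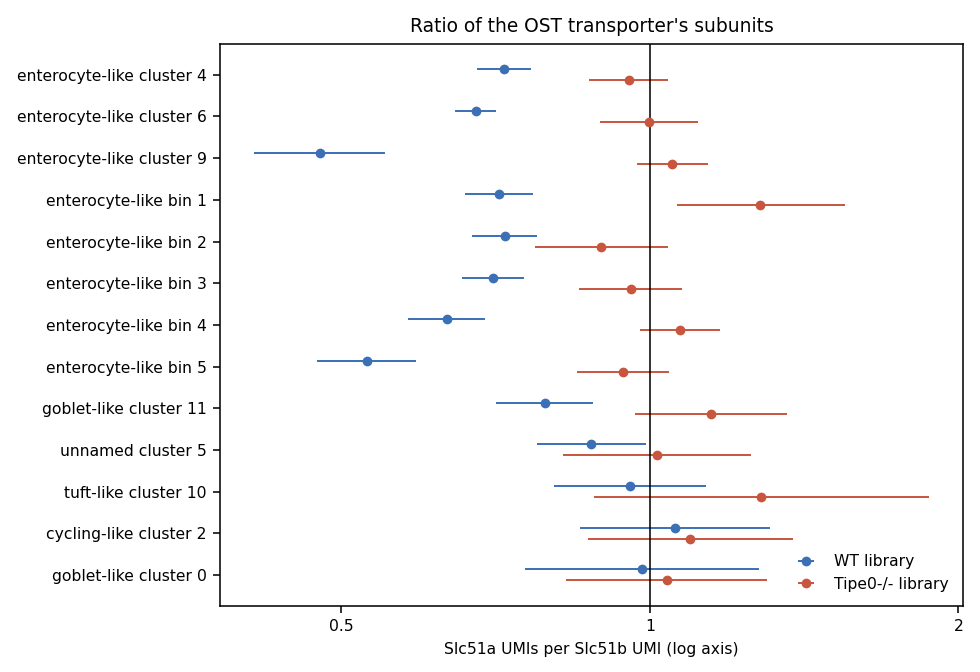
UMIs of Slc51a per UMI of Slc51b on a log axis, by cluster and by villus score bin, in the WT and the Tipe0-/- library, with exact 95% binomial intervals. In the enterocyte-like clusters and bins the WT points lie between 0.477 and 0.722 and the Tipe0-/- points between 0.897 and 1.28, and in cycling-like cluster 2 they lie side by side.

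The libraries were compared for Fgf15 at the tip end, where it was abundant enough. In bin 5 at least 1 UMI was held by 30 of 114 cells in WT (26.3%, 18.5% to 35.4%) and by 15 of 122 in Tipe0-/- (12.3%, 7.05% to 19.5%). After thinning to 3000 UMIs the shares were 16.7% (10.3% to 24.8%) and 9.02% (4.59% to 15.6%), with intervals that overlapped. The CPM was 76.0 (56.6 to 99.95) in WT and 36.5 (23.8 to 53.5) in Tipe0-/-, a log2 ratio of -1.05 (-1.80 to -0.35). Bin 4 had 13 of 135 and 5 of 101 cells with a UMI. By cluster, 24 of 76 WT cells and 18 of 155 Tipe0-/- cells of cluster 9 were positive (31.6%, 21.4% to 43.3%, and 11.6%, 7.03% to 17.7%), with no overlap of the intervals, and 21.1% and 8.39% after thinning. The median villus score of these cluster 9 cells was 1.51 in WT and 0.80 in Tipe0-/-, so the groups compared differed in score as well. They may also differ in their mix of the finer clusters given above. T lymphocyte-like cells had 0 of 92 and 0 of 17 positive cells. The Tipe0-/- library had more of its enterocyte-like cells in the upper bins of the score. Among enterocyte-like cells, where the score was built, 4 of 10 tested base genes were past 1.5-fold lower in Tipe0-/- and 0 higher. Of 15 tested tip genes 2 were higher and 0 lower, beside 12.8% of all genes higher and 3.85% lower. Over all cells 4 of the score's 12 base genes were past 1.5-fold lower in Tipe0-/- and 2 higher. Whether a bin is the same position in both libraries was not tested. The Fgf15 ratio over the class was -0.19, and it was -1.21 with equal shares of the bins in both libraries. The counts are small: 10 cells held 37.9% of the WT and 51.2% of the Tipe0-/- UMIs of Fgf15, the richest WT cell held 10, and without the 10 richest cells of each library the class ratio was -0.91. Fgf15-positive and Fgf15-negative cells of bin 5 had similar Slc10a2, at 1122 and 1112 CPM in WT and 1652 and 1586 CPM in Tipe0-/-. The positive WT cells were deeper, with a median of 5806.5 against 4762 UMIs, and the positive Tipe0-/- cells were not (4806 against 5019). Fabp6 was at 22005 (21359 to 22666) and 16401 (16037 to 16770) CPM in WT, and the order was the other way in Tipe0-/-, at 25060 and 28096 CPM.

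**Figure D5:**
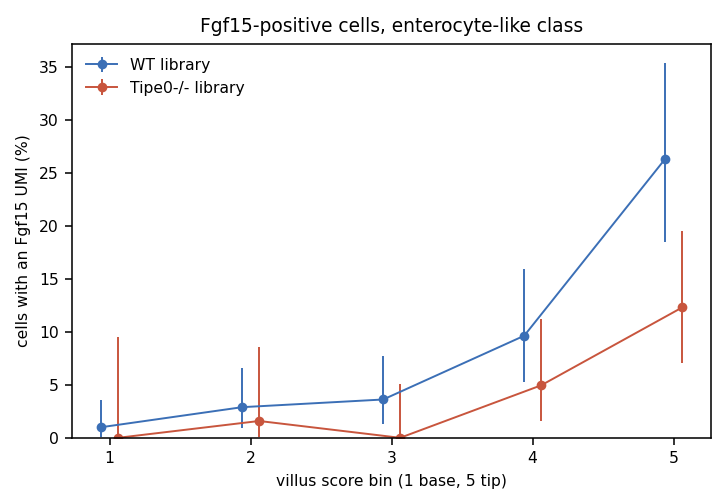
Percent of enterocyte-like cells with at least 1 Fgf15 UMI in each bin of the villus score, WT and Tipe0-/- library, with exact 95% Clopper-Pearson intervals. The share climbs to 26.3% of WT and 12.3% of Tipe0-/- cells in bin 5, and the 2 intervals overlap slightly.

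Other genes of the pathway were counted from lists, with 1.5-fold as the limit and all genes as the background given above. Of 12 other bile acid and sterol transporters, 7 were tested in enterocyte-like cells: 3 were past 1.5-fold higher in Tipe0-/- and 1 lower, with a median log2 ratio of 0.36. The higher ones were Abcc2 (MRP2, an apical exporter of conjugates; 1.32), Abcb1a (P-glycoprotein; 0.83) and Abcg2 (BCRP; 0.70), and the lower one was Abcc3 (MRP3, a basolateral exporter; -0.60). The sterol exporters Abcg5 (0.36) and Abcg8 (0.06) were not past it. Abcb1a was at 82.9 CPM in WT and 147 CPM in Tipe0-/- enterocyte-like cells, and Abcg2 at 334 and 542 CPM. Of 8 tested over the whole libraries (median 0.18), Abcc2 (1.16) and Abcb1a (0.88) were past 1.5-fold higher, Abcg2 was at 0.40, Abcg5 at 0.05, Abcg8 at 0.04 and Abcc3 at -0.10.

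Of 23 nuclear receptors and partners of FXR, 20 were tested in enterocyte-like cells, with a median of 0.19, and 0 were past 1.5-fold lower. Rxra, the partner of FXR, was at 0.12, Hnf4a at -0.09, Vdr at 0.15, Ncor1 at 0.38 and Hnf4g at 0.31. In the whole libraries 22 were tested (median 0.17) and 0 were past 1.5-fold, with Hnf4a at 0.05, Ncor1 at 0.36, Vdr at 0.28 and Nr2f6 at 0.24. None of the regional transcription factors was past 1.5-fold among 7 tested in the class (median 0.21, with Maf 0.40, Cdx2 0.10 and Cdx1 -0.10) or 8 over the whole libraries (median 0.19, with Cdx1 -0.08, Cdx2 0.05, Maf 0.01, Gata6 0.48). Gata4, which marks the proximal small intestine, had 5 and 4 UMIs in the libraries and Pdx1 0 in both. Lct, a lactase gene of the proximal gut, had 4 and 1 UMIs. These 3 genes were named after their values were seen. Of the 7 genes on the proximal small intestine list, 5 had at least 50 UMIs, among them Slc40a1 (ferroportin, an iron exporter) at 44.1 and 57.7 CPM, Fads1 at 23.6 and 23.2 CPM and Adh1 at 8.10 and 10.5 CPM, so the list as a whole was not at 0.

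Of 17 genes of bile acid synthesis and metabolism, 10 were tested in enterocyte-like cells, and 4 were past 1.5-fold higher in Tipe0-/- with 0 lower, at a median of 0.48. These were Cyp3a25 (2.72), Ugt2b5 (1.92), Gstm1 (1.15) and Cyp2c55 (0.98), which encode enzymes of oxidation and conjugation, each with low counts. Cyp3a25 had 26 and 81 UMIs in the class and Cyp2c55 26 and 24. The abundant members of the list were at 0.19 (Sult1b1), 0.45 (Ugt2b34), -0.09 (Sult2b1) and 0.30 (Cyp3a13). Among 11 tested over the whole libraries (median 0.53), Cyp3a25 (2.29), Ugt2b5 (1.74), Sult1a1 (2.63, from 13 and 52 UMIs) and Gstm1 (0.92) were past 1.5-fold higher, with Ugt2b34 at 0.38, Sult1b1 at 0.10, Sult2b1 at -0.40 and Cyp3a13 at -0.11. The hepatic enzymes Cyp7a1, Cyp8b1 and Cyp7b1 and the hepatic transporter Slc10a1 had 0 UMIs in both libraries.

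Among 6 genes of Fgf15 production and its receptor, Malrd1 (Diet1, a regulator of Fgf15 production) was at 76.4 CPM in WT and 114 CPM in Tipe0-/- enterocyte-like cells, a log2 ratio of 0.58 just under 1.5-fold. Its whole-library ratio was 0.55, beside 0.62 for Fgfr3, the one past 1.5-fold of 4 tested there, 0.41 for Fgfr2 and 0.47 for Fgfr4. Klb, the coreceptor of Fgf15 in the liver, had 1 and 0 UMIs. Of the bile acid membrane receptors, Gpbar1 (TGR5) had 2 and 3 UMIs, and S1pr2, with 51 and 21 UMIs, had a log2 ratio of -0.59 (-1.41 to 0.15), past 1.5-fold lower with an interval that spans 0. The proximal intestine list had Slc40a1 (0.50) and Adh1 (1.25, from 26 and 29 UMIs, past 1.5-fold higher) tested in the class. Of 5 tested over the whole libraries, Fabp1 was past 1.5-fold lower (-2.84), where Slc40a1 was at 0.39, Fads1 at -0.03 and Adh1 at 0.37. Fabp1, a fatty acid-binding protein, was among the genes that lead the tuft-like cluster, and had 25 and 16 UMIs in enterocyte-like cells.

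The 2 lists that make up the villus score also differed. In enterocyte-like cells 4 of 10 tested base genes were past 1.5-fold lower in Tipe0-/- (Reg3g -0.90, Lypd8 -0.80, Dmbt1 -0.86 and Gpx2 -0.98) and 0 higher, with Reg3b at -0.44 and a median of -0.41. Of 15 tested tip genes, Ada (0.97) and Fos (0.60) were past 1.5-fold higher and 0 lower at a median of 0.42, with Apoa1 at 0.44, Krt20 at -0.19, Tmigd1 at 0.54 and Enpep at 0.57. Over all cells Gstm3 (0.76) and Reg1 (1.63) of 12 base genes were past it higher and Reg3b (-0.68), Reg3g (-0.90), Lypd8 (-0.84) and Gpx2 (-0.63) lower, and of the tip genes Apoa4 (-0.68) was lower, with Apoa1 at 0.03, Krt20 at -0.53, Enpep at 0.18 and Tmigd1 at 0.11.

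The genes most like each member were found from the correlation of log2(CPM + 10) over 25 sums of a cluster in a library. These points share libraries and clusters, so the coefficients are descriptions. The closest pair of members was Slc51a with Slc51b (Pearson's r = 0.99), followed by Fabp6 with Slc51a (0.98). Nr1h4 was closer to Fabp6 (0.92) than to Slc10a2 (0.65). For Fabp6 the 5 closest genes were Mgat4c (0.99), Slc51a, Zzef1, Slc25a24 and Mall (0.98 to 0.97). For Slc10a2 they were Slc34a2 (0.99), the brush border peptidases Anpep and Dpep1, the sulfate transporter Slc13a1 and Tmigd1 (all 0.99). Slc51a was followed by Slc51b, the disaccharidase Sis, Ces2e, Sult2b1 and Slc7a9 (0.99 to 0.98), and Slc51b by Sult2b1, the amino acid transporter Slc7a9, Slc51a, Ceacam20 and Cst6 (all 0.99). Those of Nr1h4 were Gna11 (0.98), Il17rc, Plpp2, Mylk and the chloride transporter Slc26a3 (0.96 to 0.95).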

How the data were processed

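Per the submitters' processing notes the authors counted reads with Cell Ranger on mm10. The libraries were Chromium 3′ v2, and the authors deposited raw UMI counts for each retained cell. The counts are not normalized, every cell had at least 3000 UMIs, and no cell was left out here. For the digestion, Collagenase with Dispase stands in the labels and DNase I with Dispase in the methods. The members and lists were chosen with earlier results of these data known.

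Cells were log-normalized and clustered with Seurat 5.3.0 (R 4.3.3) on 14 principal components at resolution 0.8. The members, their lists other than the villus and proximal ones, and the genes of the study's genotype comparison were left out. This left 518 of 582 variable genes. Genes of the villus and proximal lists could therefore help to form the clusters, unless another of the sets left out held them. A cluster was named for the marker list on which it scored highest, provided that 3 or more markers were found in at least 10% of its cells and 1.5 times the share elsewhere. Scrublet (Scanpy 1.11.5) called only 15 WT and 3 Tipe0-/- cells as doublets, and none was removed. How many doublets these calls miss was not tested. In this clustering B lymphocyte genes fell in cluster 12, named T lymphocyte-like, and no enteroendocrine-like cluster was named. With 2000 variable genes chosen by vst, a B lymphocyte-like (42 WT and 8 Tipe0-/- cells) and an enteroendocrine-like cluster (39 and 25) were separate.

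Sums of UMIs were divided by the summed UMIs of the same cells. Log2 ratios add 0.5 to each sum, and intervals (Poisson, binomial and Clopper-Pearson, scipy 1.17.1, Python 3.11.15) cover counting error only. Shares used cells thinned to 3000 UMIs (numpy 2.4.6). For Fgf15 along the villus score the share from all UMIs is given too. Ratios and intervals were tested on simulated Poisson counts, which hold no spread between cells. Among enterocyte-like cells the variance of thinned Fabp6 UMIs was 34.9 times the mean in WT and 40.5 times in Tipe0-/-. For Slc10a2 it was 1.99 and 2.80 times the mean. The intervals do not include this spread, and for Fabp6 they are much too narrow to describe it. With 1 library per genotype no batch and no pairing could be examined. All 7 members are named, with the 5 genes (of those with at least 500 UMIs) most like each member that had at least 200 UMIs and, of each list, genes with at least 50 UMIs past 1.5-fold and the 4 with most UMIs. Other genes named (for example Gata4, Lct, Klb and Cyp7a1) were chosen after their values were seen. Gene overlaps come from GENCODE M21 (GRCm38). Figures used matplotlib 3.10.9. Some genes of the lists are not reported here.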

Additional observations from a re-analysis of the deposited data

Results flagged for a closer look

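Among the classes of the clustering used throughout, the following 4 results went in opposite directions in enterocyte-like cells and in another class, with both counting intervals off 0 and the log2 ratios at least 2-fold apart. These differences were not tested, since each genotype has 1 library. Fabp6, Slc10a2 and Slc51a were higher in Tipe0-/- among enterocyte-like cells and lower among tuft-like cells, where their log2 ratios were -1.32, -1.47 and -0.98. There were 158 WT and 51 Tipe0-/- tuft-like cells, with 91 and 16 UMIs of Slc10a2 and 269 and 68 of Slc51a. After thinning, Fabp6 was seen in 64.6% and 60.8% of them, Slc10a2 in 8.23% and 3.92% and Slc51a in 19.6% and 11.8%. The intervals of these shares overlapped for each gene. The tuft-like value lay below the enterocyte-like one by -1.77 for Fabp6, -1.95 for Slc10a2 and -1.24 for Slc51a on the log2 scale. Over 17 enterocyte markers the median level in tuft-like cells was 10.1% of the enterocyte-like level in WT and 4.91% in Tipe0-/-, and its part in these values was not tested. Slc51b was lower among enterocyte-like cells (-0.31) and higher in unnamed cluster 1 (0.92, from 30 and 37 UMIs), a difference of 1.22. From the clustering with 2000 variable genes chosen by the vst method, only enteroendocrine-like, B lymphocyte-like and T lymphocyte-like cells were examined. They were set against the enterocyte-like class used throughout. Values that met the same criteria were Fabp6 in B lymphocyte-like cells (-3.48, -5.05 to -2.46, from 336 and 6 UMIs), Fabp6 in T lymphocyte-like cells (-0.66, -0.81 to -0.52) and Slc51a in T lymphocyte-like cells (-1.23, -3.02 to -0.07, from 71 and 5 UMIs), also not tested.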

How the results depend on the processing

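The main limit is 1 library of pooled mice per genotype. Over the whole libraries 1 member was past 1.5-fold lower. That count was 0 with the mean of per-cell CPM, with cells thinned to 3000 UMIs, with the same makeup of cell classes and at 2-fold, and 2 without the 10 richest cells. In enterocyte-like cells, where 0 were past 1.5-fold higher, 1 was (Slc10a2) without cluster 4, which has no enterocyte marker among its 10 leading genes, and 1 (Fabp6) with the same makeup of the 3 enterocyte-like clusters, an alternative chosen after seeing the data. In the same class 1 was past 1.5-fold lower (Fgf15) without the 10 richest cells and with the same makeup of villus score bins or of the 3 clusters. The ratio of Slc51b stayed below 0 under all 7 whole-library and 13 enterocyte-like alternatives (-0.84 to -0.42 and -0.49 to -0.17), and that of Fabp6 in enterocyte-like cells above 0 under all 13 (0.39 to 0.62). The whole-library ratios of Fabp6 (-0.18 to 0.15), Slc10a2 (-0.13 to 0.29) and Slc51a (-0.33 to 0.02) took either sign. Slc10a2 in enterocyte-like cells ranged from 0.01 to 0.60, Slc51a from 0.13 to 0.35, Nr1h4 from 0.01 to 0.38 and Fgf15 from -1.47 to 0.06. Unthinned, 83.2% of WT and 84.0% of Tipe0-/- enterocyte-like cells held a Slc10a2 UMI. The causes were not tested. No paired analysis was possible because each genotype has 1 library. Nr0b2 and, outside enterocyte-like cells, Fgf15 had too few UMIs for any comparison at this depth.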
